A study of Mus musculus with 8 samples.

Results

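This section describes 10 interferon-induced antiviral genes in a bulk RNA sequencing study of mouse pluripotent and neural stem cells. They are Oas1a, Oas1b, Oas2, Oas3 and Oasl2 of the oligoadenylate synthetase family, Ifit1, Ifit2 and Ifit3 of the IFIT family, Isg15 and Mx2. They were chosen by symbol among the 24354 genes of the deposited table, with their levels in these libraries known, so their own differences are given as a description and without a test. Poly-A RNA was sequenced in 8 libraries, 2 for each of 4 groups. ESCs were the wild-type E14 line in DMEM with fetal bovine serum and LIF. EPSCs (extended pluripotent stem cells, a state in which cells can also give rise to extraembryonic lineages) were wild type, line 1 at passage 15. They were derived from C57BL/6 embryos and kept in N2B27-LCDM. This medium is named for its additives human LIF, the GSK3 inhibitor CHIR99021, dimethindene maleate and minocycline hydrochloride. NSCs were OG2+/-/ROSA26+/- neural stem cells, which carry GFP under the distal Oct4 enhancer and a ubiquitous lacZ, grown in DMEM/F12 with N2, EGF and FGF2. Hybrid cells were near-tetraploid cells made by polyethylene glycol fusion of EPSCs with these NSCs, picked as an Oct4-GFP+ line, kept in the EPSC medium and sampled at passage 10. ESCs, EPSCs and hybrid cells grew on C3H mouse embryonic fibroblasts inactivated with mitomycin C, whereas NSCs grew on gelatin without feeder cells. Both libraries of a group came from 1 line, the hybrid line being a single picked line, so the spread within a group does not cover separate derivations or fusions. Line, strain and medium cannot be told apart between ESCs and EPSCs. The sources do not state that EPSC line 1 was the line fused, so EPSCs are called a parent of the hybrid cells by cell type only.

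Interferons are secreted proteins that cells release when sensors find foreign nucleic acid. They bind surface receptors whose kinases activate STAT proteins, which join IRF9 on a DNA motif called the interferon-stimulated response element and switch on many antiviral genes. OAS enzymes detect double-stranded RNA and make a short adenylate chain that serves as an antiviral signal. IFIT proteins bind RNA that lacks the marks of host caps, ISG15 is a ubiquitin-like protein that is attached to other proteins, and MX proteins are dynamin-like GTPases that block viral replication. Pluripotent stem cells are known to respond weakly to interferon and to make little of it.

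Most of the genes lie in gene clusters that hold several family members. On GRCm38.p6, Oas2 (chr5:120730333-120749886), Oas3 (chr5:120753098-120777684), Oas1b (chr5:120812635-120824163) and Oas1a (chr5:120896256-120907544) are neighbours, while Oasl2 (chr5:114896926-114912245) lies elsewhere on the same chromosome. Ifit2 (chr19:34550550-34576534), Ifit3 (chr19:34583119-34588982) and Ifit1 (chr19:34640889-34650009) follow each other. Isg15 lies at chr4:156199424-156200818 and Mx2 at chr16:97536081-97560901. RefSeq lists Oas1b and Mx2 as transcribed pseudogenes, and both are known to be truncated in many laboratory strains.

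Promoter sequence from RefSeq on GRCm38.p6, from 250 bases before to 50 after the start of a transcript, was found for 7 of the 10 genes. The core of the interferon-stimulated response element (GAAA, any 2 bases, GAAA) was searched on both strands. It was present for 5 of them, and for 36 of 98 interferon pathway genes outside the 10. Over all 32851 promoter windows of this length, 3.44% held it. The stretches around the matches are printed because they show how many copies of the element each gene has and how they are spaced, each read along the strand of its gene and with the repeated GAAA or its complement TTTC in capitals. They lie at chr4:156200850-156200921 on the minus strand for Isg15, chr5:120907526-120907570 on the minus strand for Oas1a, chr5:120777700-120777759 on the minus strand for Oas3 and chr19:34640760-34640838 on the plus strand for Ifit1.
Isg15: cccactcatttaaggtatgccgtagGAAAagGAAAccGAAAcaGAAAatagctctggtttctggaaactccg
Oas1a: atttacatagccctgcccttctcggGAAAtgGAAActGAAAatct
Oas3: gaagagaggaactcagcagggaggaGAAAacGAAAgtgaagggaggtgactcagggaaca
Ifit1: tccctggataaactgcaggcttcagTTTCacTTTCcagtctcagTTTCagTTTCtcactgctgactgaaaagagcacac

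In Isg15, 3 matches overlap each other within 1 run of repeats, and in Oas1a 2 matches share a GAAA. Oas3 held 1 match. Ifit1 held 2 separate matches on the other strand, tttcactttc and tttcagtttc, and the Ifit3 window held the same letters in the same order, at chr19:34583373-34583382 and chr19:34583407-34583416. No match was found in the Oasl2 window or in the 2 windows of Ifit2, which says only that these letters are not in those bases. The Oas1a matches lie almost wholly, and the Ifit3 matches wholly, within the RefSeq gene spans given above, so they may not precede every transcript start. A match is a description of sequence and not a measured binding site.

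Levels are given in FPKM, which scales the fragments of a gene by its transcript length and by a measure of library size. FPKM is a share of a library's RNA, so fewer cells of a type and less RNA per cell cannot be told apart. The depth, derived from the steps between low FPKM values, lay between 22.1 and 32.6 in units of 1000000 fragments. It assumes a fragment length of 200 nucleotides and scaling by the mapped fragments of each library, which the sources do not state. At that depth, 3 fragments on a transcript of 2000 nucleotides correspond to between 0.0511 and 0.0756 FPKM, which covers counting error only. FPKM summed to between 415239.7 and 653796.4 per library, with the lowest sums in NSCs. Markers separated NSCs from the other groups as labelled. The pluripotency sums of hybrid libraries overlapped those of ESC and of EPSC libraries, so they do not check those labels. Summed over 8 pluripotency markers, FPKM ran from 4743.7 to 5727.7 in ESC, EPSC and hybrid libraries and from 117 to 120 in NSC libraries, where Pou5f1, Zfp42, Tdgf1, Dppa5a and Utf1 were listed at 0. Summed over 9 neural stem cell markers, it ran from 4677.0 to 4795.1 in NSCs and from 221 to 667 in the other groups. In ESCs, EPSCs and hybrid cells most of this sum was Vim, which stood at 655 and 544 FPKM in hybrid libraries.

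All 10 genes reached a mean of at least 1 FPKM in at least 1 group, the filter that left 13239 genes for tests. Oas1b, Oas3 and Mx2 passed it through ESCs alone. In 4 of the 10 (Oas3, Ifit1, Ifit3 and Mx2) no group mean exceeded 3 FPKM, so they could not meet the fold rule used here, which asks for a ratio of group means over 3 and for more than 3 FPKM in the higher of them. This is a reading of the methods of the study, which can also be read as a mean over both groups, and its results state lower thresholds of 2 for both.

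Among the enzymes that make the adenylate signal, Oas2 was the most abundant in ESCs. It stood at 28.0 and 28.5 FPKM in ESC libraries, 0.813 and 0.403 in EPSC libraries, 2.21 and 2.55 in hybrid libraries, and was listed at 0 in both NSC libraries. The groups did not overlap, and the ESC mean was 46.5 times the EPSC mean. Oas1a gave 16.1 and 16.8 FPKM for ESCs, 6.05 and 4.65 in EPSCs, 10.4 and 8.72 in hybrid cells, and 0 in both NSC libraries. It kept the highest level of the OAS genes in EPSCs and hybrid cells, and the ESC mean was 3.07 times that of EPSCs. In the annotation, 40.9% of the 100-base windows of Oas1a transcripts also occur in its paralog Oas1g, so fragments may have been divided between the pair. Oas3, the longest of the OAS enzymes, was low throughout, at 1.04 and 1.15 FPKM for ESCs, 0.19 and 0.231 in EPSCs, 0.404 and 0.447 in hybrid cells, and 0 in both NSC libraries. Its groups were again separate, with an ESC mean 5.21 times the EPSC mean.

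Oas1b, the flavivirus resistance gene of the mouse, gave 4.03 and 4.13 FPKM for ESCs and 0.111 and 0.16 in EPSCs. Hybrid libraries gave 0.486 and 0.728, and NSC libraries gave 0.0428 and 0.0213, which is below the level of 3 fragments. The EPSC values lie just above that level, so the ESC to EPSC ratio of 30.1 rests on few fragments. Oasl2, an OAS-like protein with a ubiquitin-like end, stood at 8.87 and 8.97 FPKM for ESCs, 0.816 and 0.4 in EPSCs, 1.1 and 1.92 in hybrid cells, and 0.131 and 0.165 in NSCs. Its ESC mean was 14.7 times its EPSC mean, and no 2 groups overlapped. The 5 OAS genes thus shared 1 order of levels, ESC, hybrid, EPSC and NSC.

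Isg15, the ubiquitin-like modifier, was the second most abundant of the 10 genes in ESCs. It gave 19.9 and 19.0 FPKM for ESCs, 4.44 and 2.31 in EPSCs, 10.7 and 9.63 in hybrid cells, and 0.25 and 0.574 in NSCs. This is the order of the OAS genes, with no overlap between neighbours, and the EPSC libraries differed most from each other in FPKM. Ifit1 gave 2.43 and 2.7 FPKM for ESCs, 2.29 and 2.54 in hybrid cells, 1.19 and 0.732 in EPSCs, and 0.129 and 0.0712 in NSCs. ESC and hybrid libraries overlapped, and both lay above EPSC libraries.

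For Ifit3 the values were 2.56 and 2.52 FPKM for ESCs, 2.25 and 3.6 in hybrid cells, 1.19 and 0.776 in EPSCs, and 0.292 and 0.31 in NSCs. Here the hybrid libraries spanned the ESC level, and the higher hybrid mean rests on the second library. Of the 100-base windows of Ifit3, 31.7% also occur in Ifit3b, which was at 0.556 and 0.495 FPKM for ESCs and 0.898 and 1.02 in hybrid cells. Mx2 gave 1.56 and 1.76 FPKM for ESCs, 0.619 and 0.693 in hybrid cells, 0.631 and 0.375 in NSCs, and 0.184 and 0.176 in EPSCs. In contrast to the genes above, Mx2 was lowest in EPSCs, and hybrid and NSC libraries overlapped.

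Ifit2 was the exception among the 10. It stood at 9.35 and 9.75 FPKM in NSCs, 0.72 and 1.04 in hybrid cells, 0.451 and 0.511 in ESCs, and 0.337 and 0.406 in EPSCs. The groups were separate, and the NSC mean was 19.9 times the ESC mean and 10.8 times the hybrid mean. Across the 8 libraries, the log2(FPKM + 1) values of Ifit2 had a Pearson r of -0.61 with the mean standardized level of the 10 genes, whereas the others lay between 0.86 and 0.98. These r values are a description over 8 libraries in 4 groups, and each gene is part of the mean it is compared with.

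**Figure D1:**
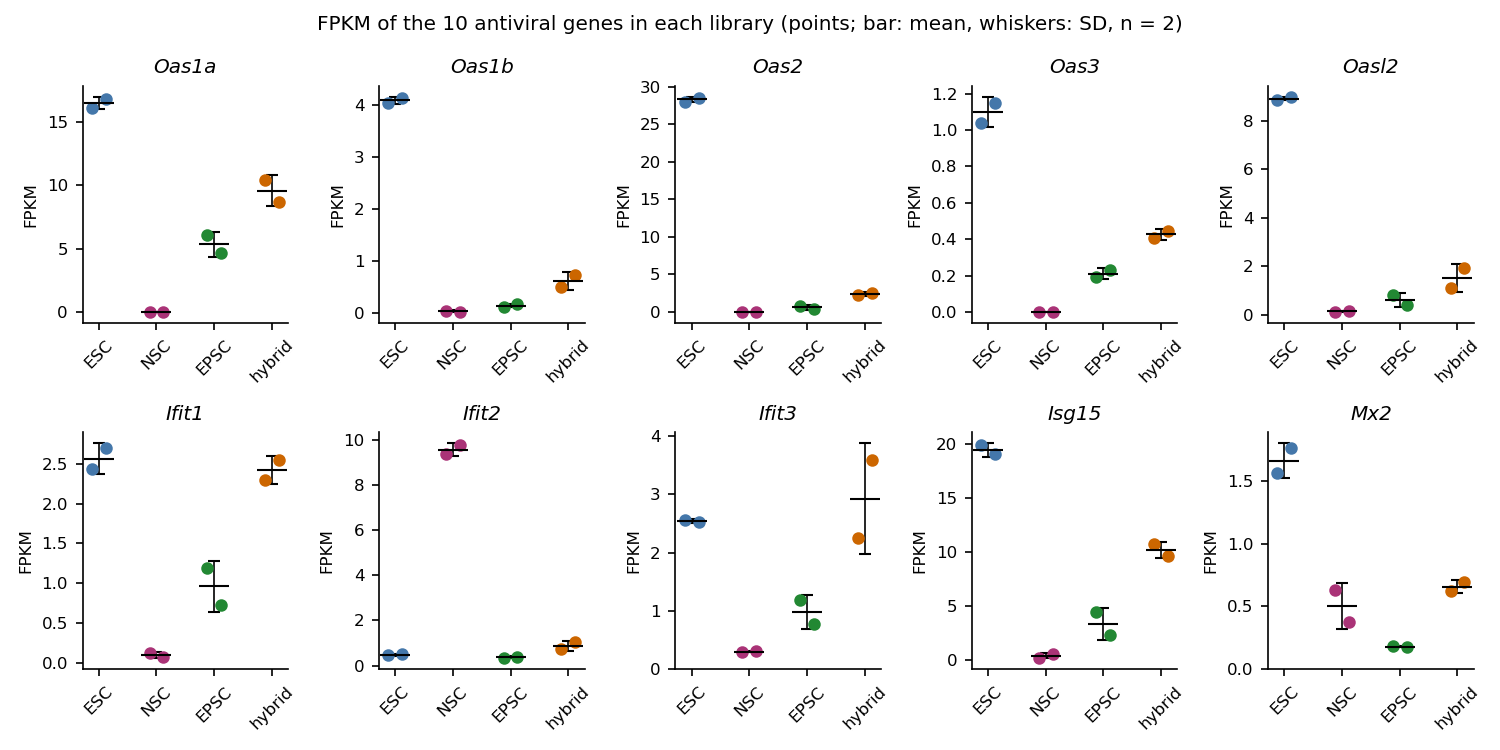
FPKM (vertical axis, a separate linear scale for each gene) of the 10 genes in each library, by group. Points are libraries, bars are means and whiskers are SD over 2 libraries. ESC libraries had the highest mean for 8 genes, hybrid libraries had the higher mean for Ifit3, and NSC libraries stood at 9.35 and 9.75 FPKM for Ifit2.

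EPSCs were compared with ESCs, since the study asks how the extended state differs from conventional pluripotency. Every one of the 10 genes was lower in both EPSC libraries than in both ESC libraries, and 37.5% of all 13239 genes showed that pattern. By the fold rule, 5 genes were lower in EPSCs (Oas1a, Oas1b, Oas2, Oasl2 and Isg15), beside 2.36% of all genes. With both thresholds at 2, Ifit1 and Ifit3 joined them to make 7, beside 6.56% of all genes. With the mean of both groups over 3 FPKM, Oas1b dropped out to leave 4, beside 1.77%. At the thresholds of 3, the count was 4 with quantile normalization, with 1 FPKM added to the means or without EPSC library 2. Of the 5 genes, Oas1a lay closest to the threshold, at a ratio of 3.07. On the log2(FPKM + 1) scale, which understates changes of low genes, the differences of EPSCs from ESCs ran from -4.20 with a standard error of 0.13 for Oas2 to -0.11 with a standard error of 0.10 for Ifit2. Oasl2 (-2.64, SE 0.17), Isg15 (-2.27, SE 0.22) and Oas1b (-2.16, SE 0.09) followed Oas2. The median over the 10 was -1.32, against 0.04 over all genes. Since the genes were chosen with this contrast known, these values describe them and nothing is read from the shares.

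The EPSC libraries differed from each other in these genes. Library 1 was above library 2 for 7 of the 10, and by more than 1.5 times for 5, while library 2 was not above library 1 by that ratio for any. Of the 79 tested interferon pathway genes outside the 10, 14 were higher in library 1 and 5 in library 2 by that ratio, and of all genes 522 and 707 were. Both libraries lay below the ESC libraries for each of the 10 genes, so the direction does not rest on either one.

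Hybrid cells were compared with ESCs and with both fusion parents. Against ESCs, the difference ran from -3.11 (SE 0.13) for Oas2 to 0.34 (SE 0.10) for Ifit2, with a median of -0.70 against 0.04 over all genes. It was close to 0 for Ifit1 (-0.06, SE 0.12) and Ifit3 (0.13, SE 0.17), and the latter became -0.12 without hybrid library 2. By the fold rule, Oas1b, Oas2 and Oasl2 were lower in hybrid cells than in ESCs, beside 3.04% of all genes. The order ESC, hybrid, EPSC, NSC with no overlap held for 6 of the 10 genes and for 2.25% of all genes.

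Against EPSCs, all 10 genes were higher in both hybrid libraries, a pattern that 34.5% of all genes showed. The ratio of hybrid to EPSC means was lowest for Oas1a (1.79) and Oas3 (2.03) and highest for Oas1b (4.48), Oas2 (3.92) and Mx2 (3.64). The ratios of Oas1b and Mx2 rest on few fragments, since their EPSC means were 0.136 and 0.18 FPKM. On the log2(FPKM + 1) scale, Isg15 had the largest difference (1.39, SE 0.22), followed by Oas2 (1.08, SE 0.13) and Ifit3 (0.97, SE 0.17), and the median was 0.69 against 0.00 over all genes. Isg15 alone met the fold rule, with a ratio of means of 3.01, just inside the threshold, beside 1.04% of all genes, and without EPSC library 2 none did. This comparison and the one of EPSCs with ESCs share the EPSC libraries.

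**Figure D2:**
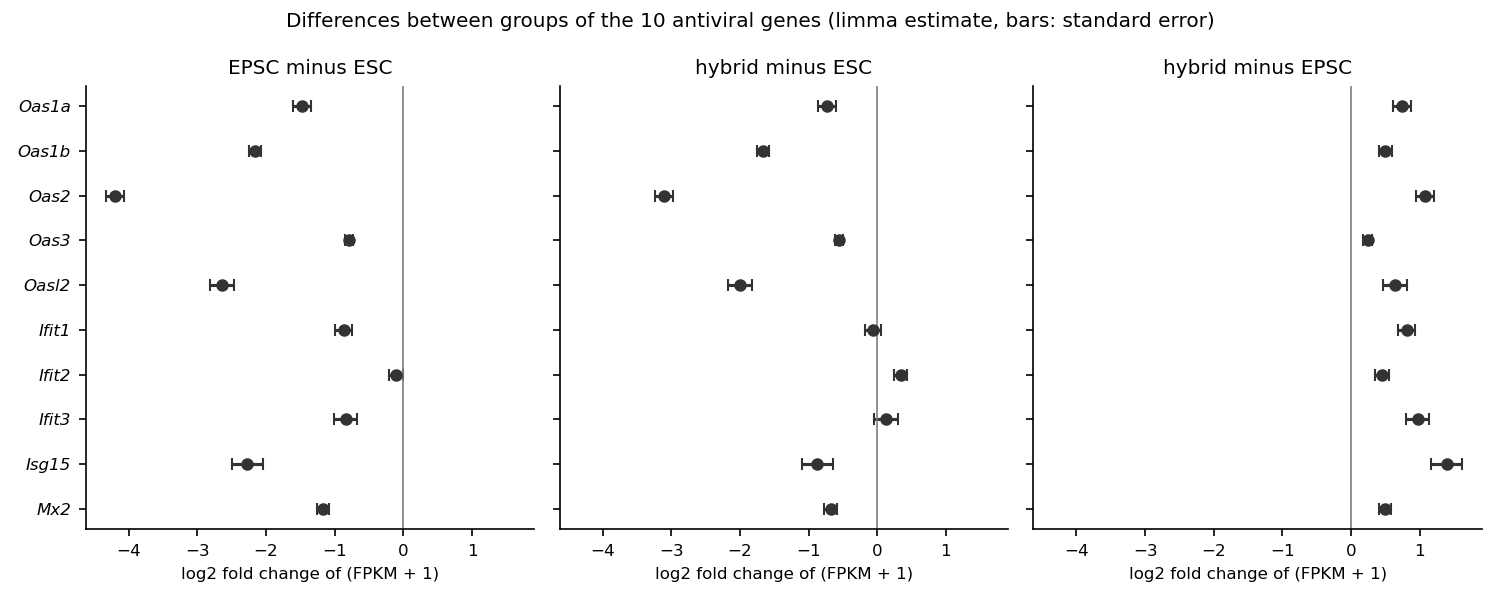
Differences between group means on the log2(FPKM + 1) scale (horizontal axis) for the 10 genes (vertical axis), with standard errors from limma as bars. The points of EPSC minus ESC run from -4.20 to -0.11, and those of hybrid minus EPSC from 0.24 to 1.39.

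Against NSCs, the neural parent, 8 of the 10 genes were higher in both hybrid libraries than in every EPSC and NSC library, as were 18.7% of all genes. Mx2, whose hybrid libraries overlapped those of NSCs, and Ifit2 were the others. For these 8 genes the hybrid mean was between 3.58 times (Oas1a) and 7.83 times (Oas2) the mean of the EPSC and NSC means, which is what equal amounts of both parental RNAs would give. For Mx2 it was 1.92 times that mean. Ifit2 behaved the other way, since the hybrid mean of 0.881 FPKM was 0.178 times the mean of the parents and 2.37 times the EPSC mean.

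The fold rule placed 2 genes (Oas1a and Isg15) higher in EPSCs than in NSCs, beside 12.3% of all genes, and the same 2 higher in hybrid cells than in NSCs, beside 12.7%. Ifit2 was lower in EPSCs (16.5% of all genes were) and in hybrid cells (16.3%) than in NSCs. Between NSCs and ESCs, 5 of the 10 genes were lower in NSCs (11.7% of all genes) and Ifit2 was higher (15.9%). No fold is given for Oas1a, Oas2 and Oas3 against NSCs, where they are listed at 0, or for Oas1b, which was under the level of 3 fragments there.

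The rest of the interferon pathway was described with lists that exclude the 10 genes. Of 119 listed genes, 117 were in the table and 79 passed the filter. With limma on log2(FPKM + 1) and Benjamini-Hochberg adjustment over 13239 genes, 38 of the 79 were lower and 15 higher in EPSCs than in ESCs, while 27.3% of all genes were lower and 33.7% higher. The median difference of the 79 was -0.35. In hybrid cells against ESCs, 32 were lower and 23 higher (30.2% and 35.3% of all genes). In hybrid cells against EPSCs, 10 were lower and 40 higher (21.9% and 22.5% of all genes), with a median of 0.30, and a fit of those 2 groups alone gave 6 and 25. With either EPSC library left out, 39 or 40 were lower in EPSCs than in ESCs and 37 were higher in hybrid cells than in EPSCs, where the lone EPSC library is assumed to vary like the other groups. In NSCs against ESCs, 46 were lower and 26 higher (42.8% and 41.9% of all genes).

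The interferons themselves were at or near 0. None of 21 ligand genes reached a mean of 1 FPKM in any group. Ifna4, Ifnab, Ifnb1 and Ifng were the ones with any value above 0, and the highest were 0.218 FPKM for Ifng in EPSC library 2 and 0.104 for Ifnb1 in ESC library 1. Each was listed at 0 in the other library of its group.

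Receptors and signalling genes were divided. In this list of 12, 5 were lower and 2 higher in EPSCs than in ESCs, and 9 were higher and 0 lower in hybrid cells than in EPSCs. Irf9, the DNA-binding part of the complex that interferon receptors activate, went from 22.4 ± 0.307 FPKM for ESCs to 13.4 ± 0.111 in EPSCs (log2 change -0.70, adjusted p = 0.000166) and 12.6 ± 0.289 in hybrid cells. Stat2, its signalling partner, went from 6.94 ± 0.0373 to 4.2 ± 0.544 (log2 change -0.61, adjusted p = 0.00121). The difference of hybrid cells from EPSCs was -0.08 for Irf9 (adjusted p = 0.388) and 0.31 for Stat2 (adjusted p = 0.0367), the latter no longer called at 0.20 without EPSC library 1 or at 0.23 without hybrid library 2.

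All 6 interferon receptor chains rose from EPSCs to hybrid cells, by 0.38 to 1.04 on the log2 scale (adjusted p = 0.0254 or lower). From ESCs to EPSCs they were divided, with Ifnar1 lower, Ifngr2 and Ifnlr1 higher and the other 3 not called. Ifnar1 was at 6.97 ± 0.11 FPKM for ESCs, 5.21 ± 0.224 in EPSCs and 8.04 ± 1.03 in hybrid cells, and Ifnar2 at 7.02 ± 0.187, 7.29 ± 0.302 and 11.5 ± 0.544. Both were highest in NSCs, at 18.2 ± 0.374 and 17.6 ± 1.18 FPKM, where most of the 10 genes were lowest. Ifnar1 fell from ESCs to EPSCs by 0.36 on the log2 scale (adjusted p = 0.0109), a call lost at -0.37 and -0.35 without ESC library 1 or 2, whereas for Ifnar2 the difference was 0.05 (adjusted p = 0.626). From EPSCs to hybrid cells, Ifnar1 rose by 0.54 (adjusted p = 0.00338, not called in a fit of those 2 groups alone) and Ifnar2 by 0.59 (adjusted p = 0.00129).

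Among the other interferon regulatory factors, Irf7 and Irf1 went opposite ways from ESCs to EPSCs. Irf7, an amplifier of the interferon response that is itself induced by it, was at 8.29 ± 0.974 FPKM for ESCs, 0.744 ± 0.296 in EPSCs, 2.07 ± 0.327 in hybrid cells and 0.174 ± 0.000846 in NSCs. Its log2 change from ESCs to EPSCs was -2.42 (adjusted p = 1.48e-05) and that from EPSCs to hybrid cells was 0.82 (adjusted p = 0.00332). Irf1 rose from 8.35 ± 0.26 FPKM for ESCs to 16.3 ± 0.524 in EPSCs (log2 change 0.89, adjusted p = 0.000141). It was at 20.4 ± 2.42 FPKM in hybrid cells, a further log2 rise of 0.30 (adjusted p = 0.0281) that was not called at 0.33 or 0.27 without EPSC library 1 or 2, or at 0.19 without hybrid library 1. The other 3 factors tested were not called between ESCs and EPSCs.

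Sensors of nucleic acid were mixed as well, with 4 of 14 higher and 2 lower in EPSCs than in ESCs. Aim2, a sensor of cytosolic DNA, rose from 3.69 ± 0.372 to 40.4 ± 0.52 FPKM (log2 change 3.14, adjusted p = 8.36e-07) and stood at 33.2 ± 1.5 in hybrid cells. Tmem173, which encodes the DNA sensing adaptor STING, rose from 0.223 ± 0.0775 to 1.65 ± 0.0211 FPKM (log2 change 1.12, adjusted p = 3.9e-05) and was at 15.6 ± 0.738 in NSCs. Zbp1, a sensor of Z-form nucleic acid and interferon-induced, fell from 5.21 ± 0.459 to 1.24 ± 0.478 FPKM (log2 change -1.48, adjusted p = 0.000142). Of the RNA sensors, Ddx58 (RIG-I) was at 28.4 ± 0.0356 FPKM for ESCs, 22.8 ± 8.12 in EPSCs and 41.8 ± 17.2 in hybrid cells, with no call between these groups. Ifih1 (MDA5) stayed below the filter, with group means from 0.126 to 0.542 FPKM. Mavs, the adaptor of both, was at 8.12 ± 0.0416 FPKM for ESCs and 7.15 ± 0.475 in EPSCs (log2 difference -0.16, adjusted p = 0.0746).

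The 3 tested OAS relatives outside the 10 genes had the same order of group means as the OAS genes among them. Oas1g was at 7.27 ± 0.24 FPKM for ESCs, 1.09 ± 0.043 in EPSCs, 2.92 ± 0.315 in hybrid cells and 0 in both NSC libraries. Oas1c was at 4.14 ± 0.341, 0.522 ± 0.000494 and 0.81 ± 0.0416 FPKM for ESCs, EPSCs and hybrid cells, and Oasl1 at 5.49 ± 0.425, 0.358 ± 0.00627 and 0.99 ± 0.0727. From ESCs to EPSCs, Oasl1 fell by 2.26 on the log2 scale (adjusted p = 3.22e-06), Oas1g by 1.99 (adjusted p = 4.06e-06) and Oas1c by 1.76 (adjusted p = 4.06e-06). From EPSCs to hybrid cells, Oas1g rose by 0.91 (adjusted p = 0.000358) and Oasl1 by 0.55 (adjusted p = 0.0026), whereas the rise of 0.25 for Oas1c (adjusted p = 0.0286) was not called without either EPSC library (0.25) or without hybrid library 1 (0.23). The other 6 relatives in the table did not pass the filter, and Mx1 was at or below 0.189 FPKM in all libraries.

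The proteins that act with the 10 genes showed different patterns. Usp18, the protease that removes ISG15 and restrains the receptor, followed Isg15, with 21.4 ± 0.778 FPKM for ESCs, 0.725 ± 0.161 in EPSCs, 2.3 ± 0.472 in hybrid cells and 0.3 ± 0.0462 in NSCs. It fell by 3.70 on the log2 scale from ESCs to EPSCs (adjusted p = 1.52e-06). Ube2l6, the conjugating enzyme for ISG15, rose from 2.24 ± 0.11 FPKM for ESCs to 17.3 ± 3.21 in EPSCs (log2 change 2.49, adjusted p = 4.48e-05) and was at 11.3 ± 3.25 in hybrid cells. Uba7, the activating enzyme for ISG15, was at or below 0.371 FPKM in all libraries and was not tested.

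Most of the other antiviral effectors were lower in EPSCs. Of 32 tested, 23 were lower and 2 higher than in ESCs, and in hybrid cells against EPSCs 18 were higher and 4 lower. Xaf1, a pro-apoptotic interferon-induced gene, went from 33.3 ± 2.31 FPKM for ESCs to 0.872 ± 0.0572 in EPSCs (log2 change -4.19, adjusted p = 1.52e-06) and 2.36 ± 0.668 in hybrid cells. Ifi27 went from 79.2 ± 7.61 to 4.75 ± 3.01 FPKM (log2 change -3.91, adjusted p = 5.46e-05) and stood at 16.2 ± 1.79 in hybrid cells. Rtp4 went from 16.8 ± 0.166 to 0.259 ± 0.0384 FPKM (log2 change -3.82, adjusted p = 4.25e-07) and stood at 1.41 ± 0.0959 in hybrid cells.

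Of 9 restraints on interferon signalling tested, 5 were higher and 3 lower in EPSCs than in ESCs. Socs3, which blocks JAK kinases downstream of LIF and other cytokines, rose from 7.69 ± 0.0623 to 52.1 ± 2.9 FPKM (log2 change 2.61, adjusted p = 1.37e-06). Ptpn1, a phosphatase that acts on JAK kinases, fell from 27.3 ± 0.366 to 12.6 ± 0.786 FPKM (log2 change -1.06, adjusted p = 2.09e-05). Socs1, an interferon-induced inhibitor of JAK kinases, fell from 4.83 ± 0.168 to 2.2 ± 0.383 FPKM (log2 change -0.87, adjusted p = 0.000993).

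**Figure D3:**
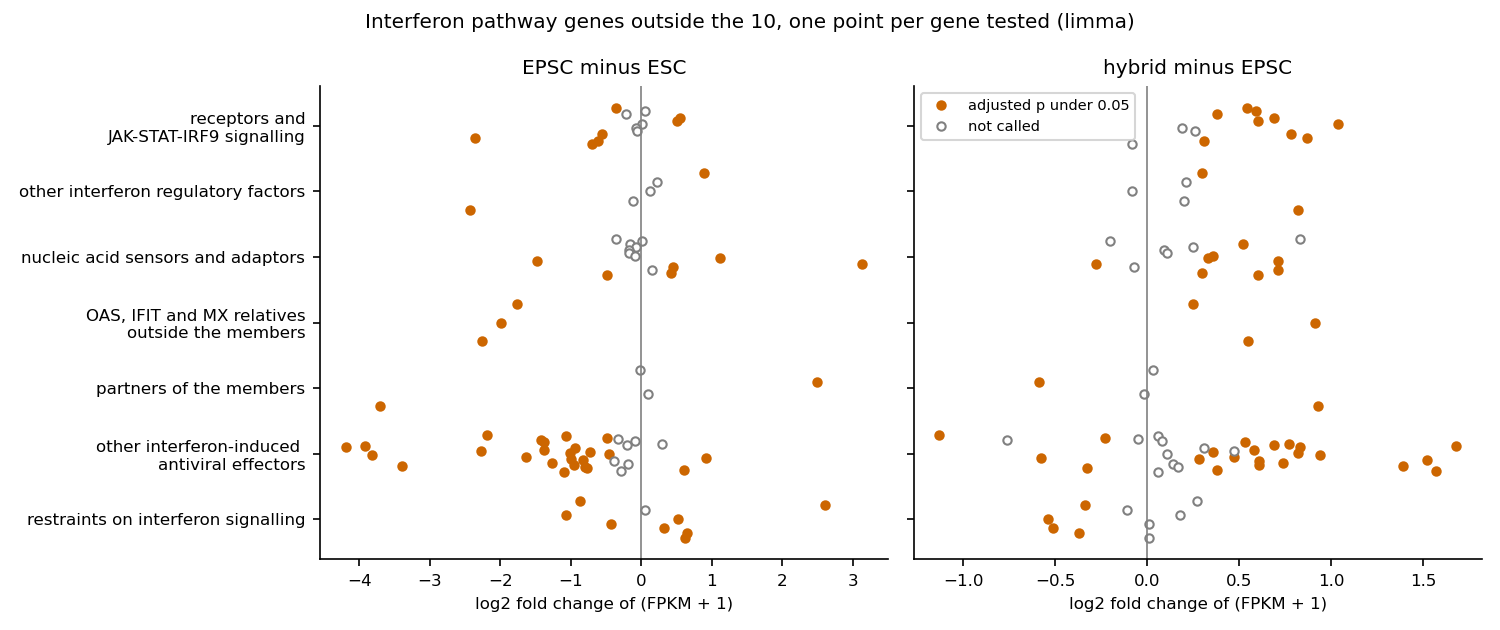
Log2 fold change of (FPKM + 1) (horizontal axis) of each tested pathway gene outside the 10, by list (vertical axis), for EPSC minus ESC and hybrid minus EPSC. Filled points passed limma at an adjusted p under 0.05. Among effectors, 23 of 32 were lower in EPSCs, and among receptors and signalling genes 9 of 12 were higher in hybrid cells than in EPSCs.

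Markers of other cell types moved between the same groups. The sum of 12 fibroblast markers was between 13.7 and 15.3 FPKM in ESC, 78.8 and 81.1 in EPSC, 230 and 315 in hybrid and 11.5 and 13.0 in NSC libraries, where Col1a2, Twist2, Lum and Fap were listed at 0. All 12 were higher in both hybrid than in both EPSC libraries, and 11 were higher in both EPSC than in both ESC libraries. The summed level of the 10 antiviral genes was 84.9 and 86.0 FPKM for ESCs, 15.3 and 10.2 in EPSCs, 31.2 and 31.9 in hybrid cells and 10.8 and 11.3 in NSCs. Most of the NSC sum was Ifit2, and without it the sum was 1.48 to 1.52 FPKM in NSCs, 9.84 to 15.0 in EPSCs, 30.5 to 30.8 in hybrid cells and 84.5 to 85.5 in ESCs. The fibroblast sum and the antiviral sum were both higher in hybrid cells than in EPSCs. Among the 3 groups grown on feeder cells, ESCs had the lowest fibroblast sum and the highest antiviral sum. Within hybrid cells, the fibroblast sum was 315 in library 1 and 230 in library 2, and the antiviral sums were nearly equal (31.2 and 31.9). The part of feeder cells in the antiviral levels was not tested.

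The sum of 8 markers of macrophages and other blood cells ran from 32.5 to 35.2 FPKM for ESCs, 7.32 to 7.43 in EPSCs, 17.4 to 19.2 in hybrid cells and 3.56 to 4.18 in NSCs, the same order of groups as for most antiviral genes. Of these, 7 were higher in both ESC than in both EPSC libraries, as were 37.5% of all genes. Most of the ESC sum was Cd68, at 26.2 ± 0.883 FPKM for ESCs and 5.17 ± 0.206 in EPSCs. Lyz2 was at 4.98 ± 0.11 and 1.52 ± 0.0264 FPKM in these groups, Tyrobp at 0.569 ± 0.0858 and 0.0648 ± 0.0916, Adgre1 at 0.331 ± 0.0316 and 0.0288 ± 0.0198, and Csf1r at 0.134 ± 0.0596 and 0.0246 ± 0.0347. Fcer1g and Cd14 were at 1.17 ± 0.78 and 0.505 ± 0.169 FPKM in ESCs, and Cx3cr1 was listed at 0 in both ESC libraries. The part of such cells in the antiviral levels was not tested.

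**Figure D4:**
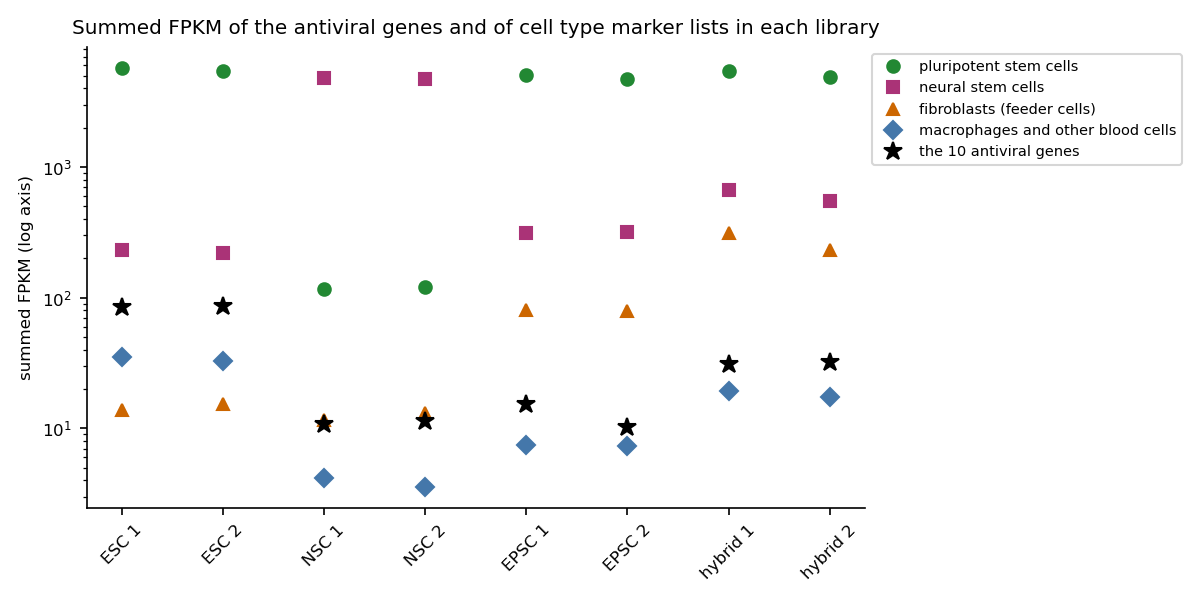
Summed FPKM (vertical axis, log scale) of the 10 antiviral genes and of 4 marker lists in each of the 8 libraries (horizontal axis). The antiviral sum lay at 84.9 and 86.0 FPKM for ESCs and between 10.2 and 31.9 elsewhere (in NSCs 1.48 to 1.52 without Ifit2), and the fibroblast sum was highest in hybrid cells.

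The genes whose pattern over the 8 libraries was most like the mean standardized level of the 10 were Kif2c (a mitotic kinesin, r = 0.993), Irf7 (0.991), Cc2d1b (0.990), Prr13 (0.990), Parp9 (0.988), Lin37 (a subunit of a cell cycle gene repressor, 0.987), Trim41 (0.986) and Rraga (a GTPase of amino acid sensing, 0.986). Irf7 and Parp9 belong to the pathway lists. Kif2c shared the order with a narrow range, at 61.5 ± 0.918 FPKM for ESCs, 49.3 ± 0.716 in hybrid cells, 42.4 ± 0.385 in EPSCs and 38.7 ± 1.01 in NSCs. Among the 100 genes with the highest r, 11 were pathway genes, out of 79 pathway genes and 13229 genes ranked. The libraries fall into 4 groups, so r mostly reflects the order and spacing of 4 group means.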

How the data were processed

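Poly-A libraries (TruSeq Stranded mRNA, paired-end) of 4 groups of 2 were deposited by the authors as FPKM per gene and library. They trimmed reads with skewer, used STAR 2.7.9a against mm10, and obtained gene values from Cuffnorm (Cufflinks 2.2.1) for each library separately. The annotation, strand setting and library normalization are not given in the sources used here. Cuffnorm may divide fragments between paralogs, which bears on Oas1a and Ifit3. Columns were mapped by label, and 0 columns belonged to other samples.

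The 10 genes and the pathway and marker lists were chosen with earlier results of these data known. Genes with a mean of at least 1 FPKM in a group were fitted with limma 3.58.1 (R 4.3.3) on log2(FPKM + 1), all 4 groups in one fit, with 4 residual and 3.25 prior degrees of freedom, two-sided, Benjamini-Hochberg adjusted over 13239 genes and called at an adjusted p under 0.05. The 10 genes were given no p. The fold rule, as read from the study's methods, asked for a ratio of means over 3, the higher mean being over 3 FPKM. The text names all 10 genes, key pathway genes fixed in a list (some are not reported here), the 3 called genes of each list with the largest EPSC to ESC change, and the 8 genes most alike by r. The limma fit was tested on simulated data. Other steps used Python 3.11.15 (numpy 2.4.6, pandas 2.3.3). Alternatives were another constant, filter, threshold, scaling and set of groups, a replicate block, and each library left out. Depth was derived from the FPKM steps.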

Additional observations from a re-analysis of the deposited data

How the results depend on the processing

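With 2 libraries of 1 line per group, depth and spread limit the low genes most. Where a library was left out, the lone one of its group was assumed to vary like the other groups. Adding 0.1 in place of 1 before the log gave medians over the 10 genes of -2.25 for EPSC minus ESC, -1.06 for hybrid minus ESC, 1.36 for hybrid minus EPSC, -4.37 for NSC minus ESC, 1.54 for EPSC minus NSC and 2.77 for hybrid minus NSC, all in the same direction. A filter at a mean of 3 FPKM, which leaves 6 of the 10, gave -2.21, -1.27 and -3.49 for EPSC, hybrid and NSC minus ESC. For NSC minus ESC the median was -2.45 with libraries scaled to a common sum and -1.86 with quantile normalization, and -2.03 to -1.96 with 1 ESC library left out. For hybrid minus NSC it was 1.10 without hybrid replicate 2. Scaling to a common sum moved the median of all genes to 0.46 for NSC minus ESC, -0.48 for EPSC minus NSC and -0.50 for hybrid minus NSC. Directions turned for Ifit3 in hybrid minus ESC (0.38 without hybrid replicate 1 and -0.12 without hybrid replicate 2), Oas1b in EPSC minus NSC (-0.12 with quantile normalization) and Mx2 in hybrid minus NSC (-0.11 scaled to a common sum, -0.14 with quantile normalization), each of which was close to 0 or low. The cause was not tested.

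By the fold rule, the 1 gene of the 10 higher in hybrid cells than EPSCs became 4 with both thresholds at 2, 2 when scaled to a common sum, 0 with quantile normalization or 1 FPKM added to the means, and 0 without EPSC replicate 2. The 2 genes higher in hybrid cells than NSCs became 5 with thresholds at 2 and 5 when scaled. The 2 higher in EPSCs than NSCs became 1 without EPSC replicate 1 and 0 when, as chosen after seeing the data, the mean of both groups had to exceed 3 FPKM. Among pathway genes, thresholds at 2 gave 23 lower in EPSCs than ESCs in place of 14, 10 higher in hybrid cells than ESCs in place of 3, 12 higher and 1 lower in hybrid cells than EPSCs in place of 3 and 0, and 15 higher in NSCs than ESCs in place of 9. Scaling gave 5 higher in hybrid cells than ESCs, 5 higher in hybrid cells than EPSCs and 15 higher in NSCs than ESCs. With 1 FPKM added, 0 were higher in hybrid cells than EPSCs. Without hybrid replicate 2, 5 were higher in hybrid cells than ESCs, and without EPSC replicate 2, 1 was higher in hybrid cells than EPSCs. With only EPSC and hybrid libraries in the limma fit, 25 pathway genes were higher and 6 lower in hybrid cells, in place of 40 and 10, and the cause was not tested. The other pathway counts by limma stayed within 1.5 times. Of the 8 genes most alike by r, 2 were kept when scaled and 3 to 7 with a library left out. Asking for a C right after the promoter element left 0.819% of all windows and 4 of the 10 genes.

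The replicate numbers come from the labels alone, and the correlation of deviations of same-numbered libraries ran from -0.11 to 0.28 over pairs of groups, so they share only a number. A replicate block gave 54 pathway calls in place of 53 for EPSC against ESC (53 shared), 56 in place of 55 for hybrid against ESC (54 shared), 53 in place of 50 for hybrid against EPSC (50 shared) and 73 in place of 72 for NSC against ESC (72 shared).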

Other observations

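The following interferon-related genes outside the 10 were picked after their values were seen. Ifnlr1, a chain of the receptor for type III interferon, was at 0.193 ± 0.101 FPKM (SD, n = 2) for ESCs, 0.695 ± 0.162 in EPSCs, 1.56 ± 0.125 in hybrid cells and 0.0092 ± 0.013 in NSCs, and it rose by 0.51 on the log2 scale from ESCs to EPSCs (limma, adjusted p = 0.00271) and by 0.60 from EPSCs to hybrid cells (adjusted p = 0.00258). Bst2, which encodes the virion-tethering protein tetherin, was at 368 ± 16.6 FPKM for ESCs, 81.3 ± 19.6 in EPSCs and 36.2 ± 0.363 in hybrid cells, so unlike all 10 genes it fell again, by 1.13, from EPSCs to hybrid cells (adjusted p = 0.00109). Lgals3bp, a secreted galectin-binding protein, was at 6.23 ± 0.358 FPKM for ESCs, 5.06 ± 1.52 in EPSCs and 17.0 ± 3.91 in hybrid cells, and it rose by 1.57 from EPSCs to hybrid cells (adjusted p = 0.00106). Herc6, the ligase for ISG15 in the mouse, was at 2.65 ± 0.207 FPKM in NSCs and at or below 0.273 in every other library, so that it was highest in NSCs, as Ifit2 was. Its increase in NSCs over ESCs was 1.71 (adjusted p = 6.2e-07).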
